A study of Mus musculus with 24 samples.

Results

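The epithelial sodium channel and the genes of its mineralocorticoid control were examined in mouse kidney during and after ureter obstruction. The set was 9 genes, taken by symbol from the 14785 genes of the deposited expression table. They were the channel subunits Scnn1a, Scnn1b and Scnn1g, the receptor Nr3c2, the enzyme Hsd11b2, the kinase Sgk1, and the sodium pump partners Atp1b1, Fxyd2 and Fxyd4. All 9 had a row, and all 9 had a value above 0 in each of the 24 libraries, so no member was lost to a filter on low values.

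The animals were male C57/BL6 mice, labelled 8 weeks of age, and kidney RNA was sequenced after polyA selection. Each of the 6 groups held 4 animals. Controls had sham surgery, at a time before sampling that the labels used here do not give. The same sham group served every comparison with sham, so group and time after surgery cannot be told apart there. In UUO2 and UUO7 a ureter stayed ligated for 2 and for 7 days. In R1W, R2W and R4W a ureter ligated for 7 days was reimplanted, and the kidney was taken 1, 2 or 4 weeks later. Per the series' design text, the 4 animals were selected from 10 in a group. The labels name the tissue as kidney and the series title as its cortex. Values are taken as FPKM, a unit inferred and not stated in the sources used here, which scale read fragments by transcript length and by the reads mapped in a library. Changes were tested with limma on log2(FPKM + 1) across all genes of the table, with Benjamini-Hochberg adjusted p-values, and a gene was called at an adjusted p under 0.05.

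The median gene of the table stood above sham by 0.09 in UUO2, 0.42 in UUO7, 0.37 in R1W, 0.32 in R2W and 0.30 in R4W on the log2 scale. Calls are therefore also given on rescaled values for the comparisons of the 9 genes, where a library is divided by the median, over genes, of its ratio to their geometric means. UUO2 replicate 2 stood apart from the other 3 UUO2 libraries in several of these genes, and the changes from sham to UUO2 given for single genes are also given without it. The mitochondrial ribosomal RNA mt-Rnr1 was at 2343 to 2832 FPKM in UUO2 and at 342 to 709 FPKM in the other groups, and the design text counts 20 libraries where 24 are labelled, so a batch of UUO2 and its group cannot be told apart. R4W replicate 2 is placed at 4 weeks by its title and at 2 weeks by its treatment label, and it was grouped by title.

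Sodium leaves the urine in the last segments of the nephron, the connecting tubule and the collecting duct, through a channel in the luminal membrane of principal cells that is built of alpha, beta and gamma subunits. Aldosterone binds the mineralocorticoid receptor in these cells. The receptor moves to the nucleus and raises transcription of the alpha subunit and of the kinase Sgk1, which keeps the channel in the membrane by restraining the ubiquitin ligase Nedd4l. The sodium pump then carries sodium out on the blood side, and small FXYD proteins tune its activity.

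Promoter windows from RefSeq were found for 6 of the 9 genes, 11 windows in all with 6 for Sgk1. There was none for Scnn1a, Hsd11b2 or Fxyd2, which were therefore not searched. They were searched on both strands for the palindrome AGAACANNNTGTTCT, a form of the element that steroid receptors bind, and for its single arm TGTTCT, which the palindrome also contains. The palindrome was in 3 of 32851 promoter windows of the same length (0.00913%), and the arm in 19.0% of them. Of the 11 windows here, 3 held the arm, all of them Sgk1 windows, and 1 of these 3 held the palindrome, beginning 189 bases before the start site. The 250 bases before that start site are shown, on the plus strand of GRCm38.p6 at chr10:21993640-21993889, with matches to the arm or the palindrome in capitals.
Sgk1: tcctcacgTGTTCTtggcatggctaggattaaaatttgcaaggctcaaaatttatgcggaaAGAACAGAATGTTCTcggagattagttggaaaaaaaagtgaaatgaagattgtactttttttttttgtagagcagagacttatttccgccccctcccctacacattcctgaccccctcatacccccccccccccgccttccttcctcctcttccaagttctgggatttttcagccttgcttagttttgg
The windows of Scnn1g (chr7:121734229-121734478) and Scnn1b (chr7:121864788-121865037), also on the plus strand of GRCm38.p6, are shown because these genes are neighbours and neither was called in UUO7 against sham on deposited values. No capitals stand in them, since these letters were not found there.
Scnn1g: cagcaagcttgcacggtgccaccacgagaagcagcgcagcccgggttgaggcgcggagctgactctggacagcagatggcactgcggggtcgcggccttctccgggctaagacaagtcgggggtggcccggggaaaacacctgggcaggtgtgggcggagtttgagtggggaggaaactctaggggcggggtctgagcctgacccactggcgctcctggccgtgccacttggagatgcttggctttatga
Scnn1b: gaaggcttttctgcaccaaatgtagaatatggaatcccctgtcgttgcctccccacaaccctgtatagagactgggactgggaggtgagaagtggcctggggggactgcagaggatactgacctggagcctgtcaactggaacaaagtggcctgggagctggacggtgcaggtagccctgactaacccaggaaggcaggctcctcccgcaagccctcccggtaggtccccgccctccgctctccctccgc
A match is a description of letters and not of a bound site.

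After 7 days of obstruction the alpha subunit was lower than in sham, while the beta and gamma subunits were not called on deposited values. Scnn1a, the alpha subunit that the channel needs to conduct, lies on chromosome 6 from 125320659 to 125344943 in the table's coordinates. It measured 31.4, 32.5, 31.2 and 29.4 FPKM in the 4 sham libraries and 13.6, 12.9, 11.7 and 14.1 FPKM in UUO7. Each UUO7 library was below each sham library, and the UUO7 mean of 13.1 ± 1.05 FPKM (SD, n = 4) was 42.0% of the sham mean of 31.2 ± 1.28 FPKM. In bulk kidney, fewer cells of a type and less RNA per cell cannot be told apart, for this gene as for the other members. The log2 fold change was -1.19 (SE 0.22, limma adjusted p = 4.66e-05), or -1.66 on rescaled values (adjusted p = 1.86e-06). Among the other groups, UUO2 libraries gave 14.1, 37.5, 13.3 and 12.7 FPKM. On deposited values 3 of the 4 UUO2 libraries were thus near the UUO7 range, while replicate 2 was above every sham library. On rescaled values those 3 libraries, at 15.8, 14.9 and 14.0, were above every UUO7 library (10.4 to 12.1), and UUO7 was called lower than UUO2 (-0.71, limma adjusted p = 0.0111), which it was not on deposited values (-0.39, adjusted p = 0.128, and -0.029 with an adjusted p of 0.850 without UUO2 replicate 2). The rescaled call kept UUO2 replicate 2, at 42.5, and was not computed without it. The fold change of UUO2 against sham was -0.81 on the log2 scale (adjusted p = 0.00450), -0.94 on rescaled values (adjusted p = 0.00201), and -1.17 on deposited values without UUO2 replicate 2 (adjusted p = 1.20e-07).

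The beta subunit Scnn1b, on chromosome 7 from 121865038 to 121918514, was not called. Its sham libraries gave 23.5, 26.5, 24.4 and 23.8 FPKM and its UUO7 libraries 27.7, 25.1, 31.2 and 37.2 FPKM. The groups overlapped, with 3 of 4 UUO7 libraries above every sham library. The log2 fold change was 0.28 (SE 0.15, limma adjusted p = 0.0943) and -0.19 after rescaling (adjusted p = 0.293), so neither scale gave a call and the direction depended on the scale. Without UUO7 replicate 2 the deposited values gave 0.36 with an adjusted p of 0.0448.

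The gamma subunit Scnn1g lies upstream of Scnn1b on the same strand, from 121734479 to 121768475, with 96562 bases between the genes. It measured 14.2, 14.7, 15.6 and 14.9 FPKM in sham and 15.4, 15.6, 16.9 and 16.0 FPKM in UUO7. Its change was 0.10 (SE 0.09, limma adjusted p = 0.308), against -0.36 on rescaled values (adjusted p = 0.00400), where the groups no longer overlapped. In UUO2 it was higher than in sham, at 16.7, 21.5, 18.8 and 18.2 FPKM. All 4 UUO2 libraries exceeded every sham library, with a log2 fold change of 0.31 (adjusted p = 0.00537), which was not called after rescaling (0.19, adjusted p = 0.137) and was 0.25 without UUO2 replicate 2 (adjusted p = 0.0221).

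The ratio of subunits within a library does not depend on how libraries are scaled. Scnn1b stood at 0.746, 0.816, 0.780 and 0.808 times Scnn1a in sham and at 2.04, 1.94, 2.66 and 2.63 times in UUO7. Beta transcripts were fewer than alpha transcripts in each sham library and more numerous in each UUO7 library, on the per-length scale. The difference of the log2 ratio was 1.55 (SE 0.12), higher in 4 of 4 UUO7 libraries than in any sham library. A two-sided exact permutation test gave p = 0.0286, the smallest that 4 against 4 libraries allow, and 0.0571 after adjustment over the 12 ratio tests made here. This ratio did not pass, but at that floor the adjusted value is set by how many of the 12 tests reach it. It does not reflect the size of the difference. The Scnn1g to Scnn1a ratio was between 0.451 and 0.507 in sham and between 1.13 and 1.44 in UUO7, a log2 difference of 1.36 (SE 0.09) with the same exact p of 0.0286 and the same adjusted value of 0.0571.

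After the ureter was reimplanted, the ratios lay between those of UUO7 and sham in most libraries. Scnn1b to Scnn1a was 1.52, 1.93, 2.14 and 1.54 in R1W, from 1.13 to 1.27 in R2W, and 1.11, 1.11, 0.971 and 1.29 in R4W. No R4W library overlapped with sham, and the log2 ratio remained 0.50 above it (SE 0.09, exact permutation p = 0.0286, adjusted 0.0571). Without R4W replicate 3 the difference was 0.57 and the adjusted exact p 0.0490, as the Scnn1g to Scnn1a ratio then also reached the smallest exact p. For Scnn1g to Scnn1a, R4W spanned 0.506 to 0.667 and overlapped with sham (log2 difference 0.27, SE 0.10, exact permutation p = 0.0571, adjusted 0.0762). The log2 difference of this ratio between R1W and UUO7 was -0.59 (SE 0.17, exact permutation p = 0.0286, adjusted 0.0571), with no overlap. In UUO2, replicate 2 had the lowest value of its group for both ratios, 0.925 and 0.572, each still above every sham library.

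**Figure D1:**
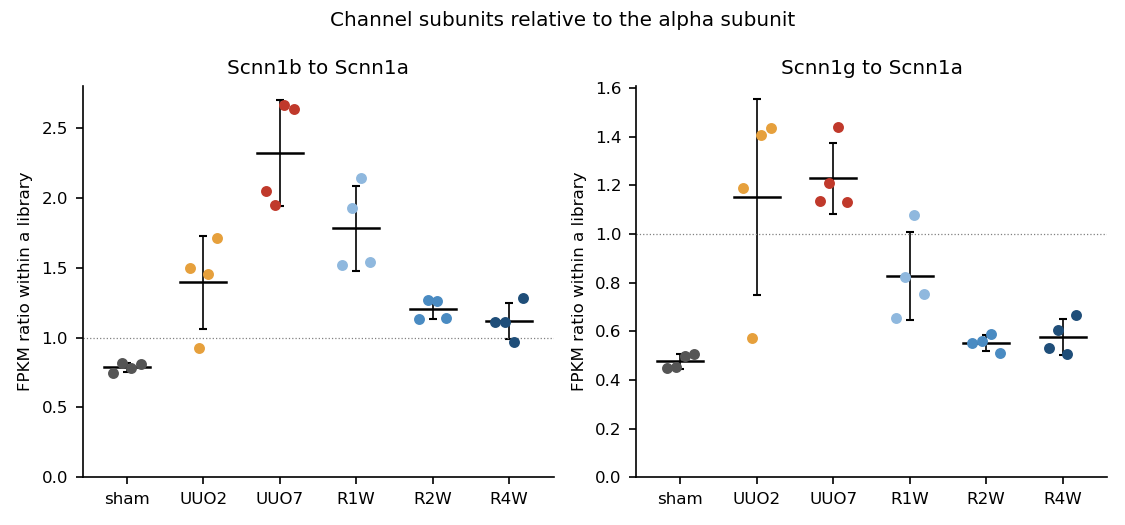
FPKM of Scnn1b (left) and Scnn1g (right) divided by FPKM of Scnn1a in the same library, with 1 point per library, the group mean as a bar and the SD as whiskers. Sham libraries lie between 0.746 and 0.816 on the left, UUO7 libraries between 1.94 and 2.66, and R4W libraries between 0.971 and 1.29.

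Scnn1a was higher in the recovery groups than in UUO7. R1W libraries held 28.8, 22.1, 17.0 and 23.6 FPKM, all above UUO7 and all below sham. The rise from UUO7 was 0.74 (SE 0.22, limma adjusted p = 0.0284) and 0.77 on rescaled values (adjusted p = 0.0315). The call on deposited values was lost when any of UUO7 replicates 1 to 4, R1W replicate 1 or R1W replicate 4 was left out, with adjusted p-values from 0.0503 to 0.0926. R2W held 29.0, 33.4, 30.6 and 39.3 FPKM, and R4W 35.5, 33.1, 34.0 and 37.2 FPKM. Against UUO7, R4W was higher by 1.35 (SE 0.22, adjusted p = 6.91e-05), or 1.45 on rescaled values. Against sham, R4W differed by 0.16 (adjusted p = 0.530) and by -0.21 after rescaling (adjusted p = 0.460).

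Scnn1b and Scnn1g ended above sham on the deposited scale. Scnn1b measured 43.6, 42.6, 36.3 and 36.3 FPKM in R1W, 32.9, 42.3, 38.6 and 44.9 FPKM in R2W, and 39.4, 36.9, 33.0 and 47.8 FPKM in R4W. Each of these 12 libraries was above every sham library. The R4W change against sham was 0.65 (SE 0.15, limma adjusted p = 0.000888) and 0.28 after rescaling (adjusted p = 0.132). For Scnn1g, R4W libraries held 18.9, 20.0, 17.2 and 24.8 FPKM, again above every sham library. Its change was 0.41 (SE 0.09, adjusted p = 0.000408) and 0.05 after rescaling (adjusted p = 0.673).

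The mineralocorticoid receptor gene Nr3c2 was also lower in UUO7, at a far lower level. It lies on chromosome 8 from 76899442 to 77245012 and encodes the nuclear receptor for aldosterone. Sham libraries gave 2.99, 3.09, 2.54 and 2.71 FPKM, and UUO7 libraries 1.52, 1.86, 1.67 and 2.23 FPKM, with no overlap. The log2 fold change was -0.45 (SE 0.14, limma adjusted p = 0.00622) and -0.79 after rescaling (adjusted p = 2.84e-05). At this level the added 1 FPKM shrinks the fold change, since the UUO7 mean itself was 64.3% of sham. UUO2 gave 1.46, 3.33, 1.66 and 1.50 FPKM, and replicate 2 was again above every sham library. The UUO2 change was -0.40 (limma adjusted p = 0.0217) and -0.52 on rescaled values (adjusted p = 0.00376). On deposited values it lost its call without sham replicate 1 or 2 or UUO2 replicate 1, 3 or 4, with adjusted p-values from 0.0518 to 0.0859, and was -0.59 (adjusted p = 6.89e-05) without UUO2 replicate 2.

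In R4W Nr3c2 was above its sham level on the deposited scale. R1W held 2.95, 3.58, 2.56 and 3.07 FPKM, R2W 3.40, 2.73, 2.81 and 3.38 FPKM, and R4W 4.14, 4.38, 3.67 and 4.80 FPKM. The rise from UUO7 to R1W was 0.52 (SE 0.14, limma adjusted p = 0.0175), which was not called without UUO7 replicate 1 (adjusted p = 0.0570). On rescaled values it was 0.53 (adjusted p = 0.0167). All 4 R4W libraries exceeded every sham library, and the R4W change against sham was 0.45 (SE 0.14, adjusted p = 0.00750). After rescaling it was 0.16 (adjusted p = 0.319) and the groups overlapped. A bidirectional noncoding gene, Gm10649, overlaps exons of Nr3c2 on the other strand, and whether counting used strand is not given in the sources used here.

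Hsd11b2 encodes the enzyme that turns cortisol and corticosterone into inactive forms and so keeps glucocorticoids off the receptor. It lies on chromosome 8 from 105518755 to 105523988. Its sham libraries gave 83.9, 86.7, 80.8 and 90.5 FPKM and its UUO7 libraries 68.1, 76.5, 95.7 and 91.6 FPKM. The groups overlapped on the deposited scale, with a change of -0.05 (SE 0.20, limma adjusted p = 0.809). On rescaled values they separated, with a change of -0.54 (adjusted p = 0.0281). UUO2 gave 67.7, 152, 65.6 and 75.9 FPKM, so that 3 libraries were below every sham library and replicate 2 far above. The UUO2 change was -0.01 (adjusted p = 0.967), -0.15 on rescaled values (adjusted p = 0.591), and -0.29 without replicate 2 (adjusted p = 0.0862).

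After reimplantation Hsd11b2 was higher than in UUO7 on both scales. Against UUO2 the recovery groups overlapped with replicate 2 of that group. On deposited values R1W (0.63, limma adjusted p = 0.00838), R2W (0.65, adjusted p = 0.00731) and R4W (0.73, adjusted p = 0.00307) were called higher than UUO2, and on rescaled values none was (adjusted p from 0.0503 to 0.197). The rescaled tests kept UUO2 replicate 2, at 172 where the others of its group were at 73.3 to 83.9, and were not run without it. R1W libraries held 138, 126, 115 and 152 FPKM, R2W 112, 161, 117 and 153 FPKM, and R4W 152, 138, 117 and 165 FPKM. The change from UUO7 to R1W was 0.67 (SE 0.20, limma adjusted p = 0.0255) and 0.71 on rescaled values (adjusted p = 0.0305). On deposited values the adjusted p went to between 0.0555 and 0.0850 without UUO7 replicate 1 or 2 or R1W replicate 1 or 4. The change from UUO7 to R4W was 0.78 (SE 0.20, adjusted p = 0.00287) and 0.89 on rescaled values (adjusted p = 0.00212). Against sham, R4W was at 167% of the mean with a change of 0.72 (adjusted p = 0.00299), which became 0.35 on rescaled values (adjusted p = 0.161).

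Sgk1, the aldosterone-induced kinase on chromosome 10 from 21882184 to 21999903 for which 1 of 6 promoter windows is printed above, varied widely between animals of a group. Sham libraries gave 27.7, 41.1, 19.8 and 17.6 FPKM, UUO2 libraries 40.3, 51.6, 20.7 and 19.0 FPKM, and UUO7 libraries 18.9, 20.3, 13.6 and 20.5 FPKM. The UUO7 and sham groups overlapped, with a change of -0.45 (SE 0.37, limma adjusted p = 0.267), which became -0.91 and was called on rescaled values (adjusted p = 0.0233). On deposited values the change ran from -0.61 to -0.22 when single libraries were left out. R1W held 26.2, 54.4, 16.7 and 25.2 FPKM and R2W 58.9, 19.3, 23.8 and 31.0 FPKM, so 1 library in each was more than the sham maximum and the others were within or below the sham range. R4W held 63.2, 53.1, 53.0 and 37.1 FPKM, each above every UUO7 library.

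The Sgk1 change from UUO7 to R4W was 1.43 (SE 0.37, limma adjusted p = 0.00317) and 1.53 on rescaled values. This was the largest of the 9 changes in that comparison on either scale. Against sham it was 0.98 (SE 0.37, adjusted p = 0.0229), with 3 of 4 R4W libraries above every sham library. That call was lost without sham replicate 3, sham replicate 4 or R4W replicate 1, with adjusted p-values from 0.0616 to 0.0755, and on rescaled values (0.62, adjusted p = 0.131).

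**Figure D2:**
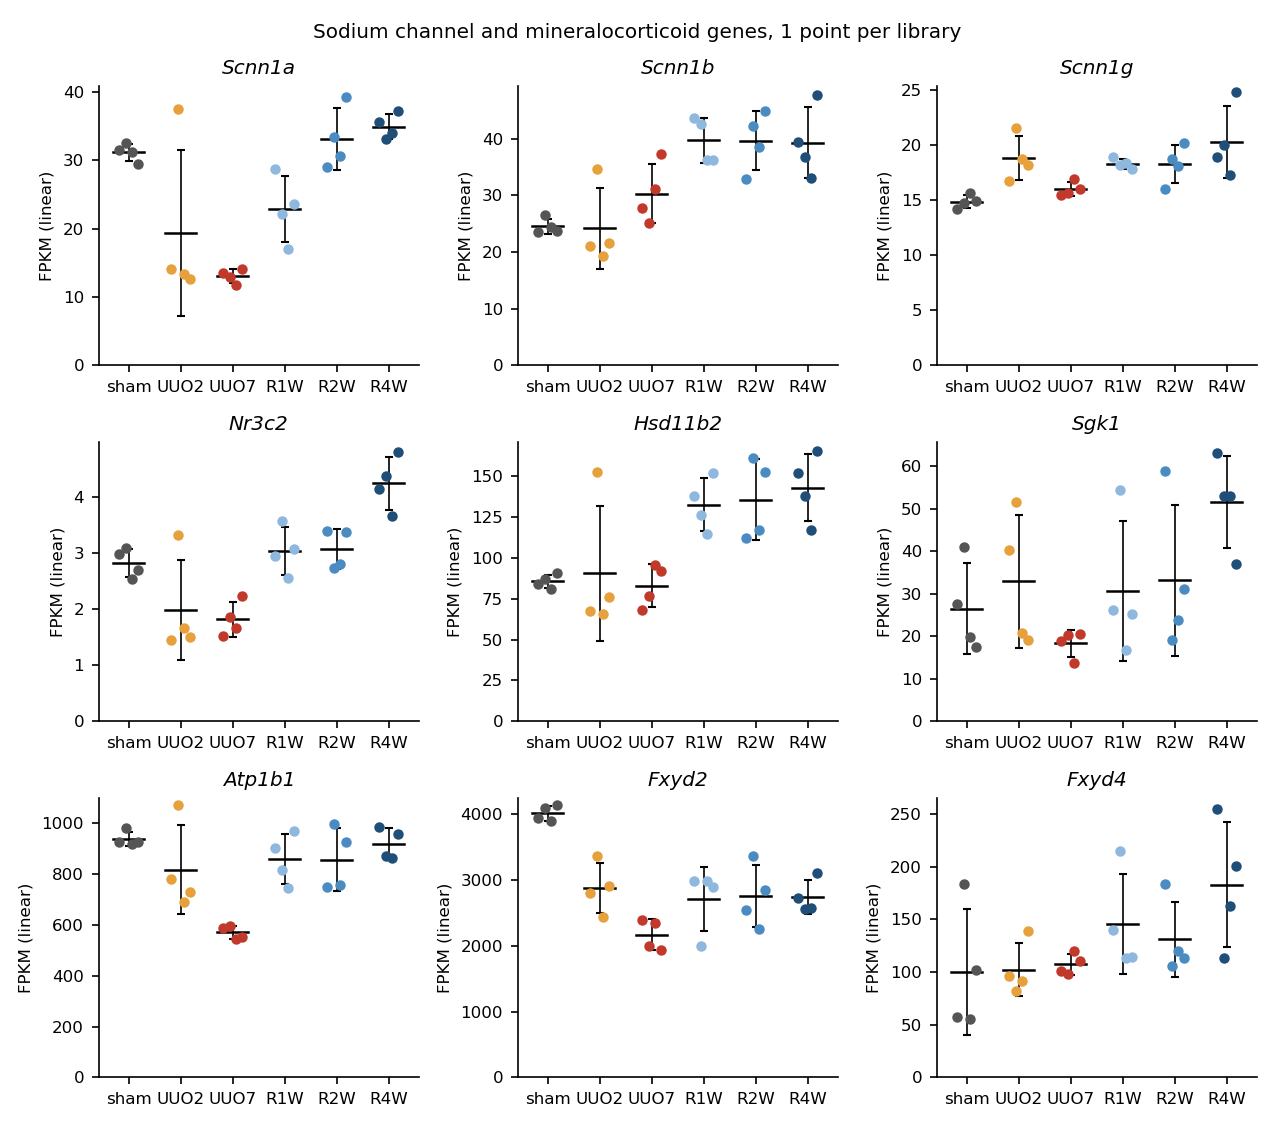
FPKM on linear axes from 0 for each of the 9 genes, with 1 point per library by group, the group mean as a bar and the SD as whiskers (n = 4 libraries a group). Scnn1a, Nr3c2, Atp1b1 and Fxyd2 show all 4 UUO7 points below all sham points, and UUO2 replicate 2 is the high UUO2 point for Scnn1a (37.5 FPKM) and Hsd11b2 (152 FPKM).

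The sodium pump partners Atp1b1 and Fxyd2 were the most abundant members and were lower in UUO7. Atp1b1, the beta subunit that carries the pump to the membrane, lies on chromosome 1 from 164437109 to 164458355. It gave 926, 982, 921 and 928 FPKM in sham and 589, 597, 545 and 553 FPKM in UUO7, with no overlap. The log2 fold change was -0.72 (SE 0.12, limma adjusted p = 1.03e-05) and -1.20 after rescaling (adjusted p = 1.42e-07). In UUO2 it was 783, 1073, 689 and 728 FPKM, a change of -0.22 (limma adjusted p = 0.125). It was called on rescaled values with all libraries kept (-0.36, adjusted p = 0.0381), and on deposited values without replicate 2 (-0.36, adjusted p = 0.00481). The further change from UUO2 to UUO7 was -0.50 (adjusted p = 0.000855), -0.85 on rescaled values (adjusted p = 2.32e-05), and -0.36 without UUO2 replicate 2 (adjusted p = 0.00380).

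Atp1b1 rose by R1W to 904, 818, 746 and 971 FPKM, above every UUO7 library. This change of 0.58 (SE 0.12, limma adjusted p = 0.00342) kept its call without any single library of either group, and was 0.62 on rescaled values (adjusted p = 0.00761). R4W held 986, 870, 862 and 957 FPKM, a change of -0.03 against sham (adjusted p = 0.810) that was -0.41 on rescaled values (adjusted p = 0.0149). Exons of Nme7 overlap Atp1b1 on the other strand, and Nme7 was listed at 17.7 to 31.2 FPKM where Atp1b1 was at 545 to 1073 FPKM.

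Fxyd2, the gamma subunit of the kidney sodium pump, was called lower than sham at all 5 times on both scales. Atp1b1 was called lower at all 5 times on rescaled values, but only in UUO7 on deposited values. Fxyd2 lies on chromosome 9 from 45399669 to 45410278. Sham libraries gave 3944, 4090.5, 3900.1 and 4138 FPKM and UUO7 libraries 2398, 2004, 2355 and 1934 FPKM. The change was -0.89 (SE 0.14, limma adjusted p = 4.29e-06) and -1.38 on rescaled values. UUO2 gave 2797, 3367, 2434 and 2917 FPKM, R1W 2993, 1992, 2992 and 2899.5 FPKM, R2W 2543.5, 3369, 2259 and 2845 FPKM, and R4W 2722, 2561, 2579 and 3108 FPKM. All 20 libraries outside sham were below all 4 sham libraries.

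At R4W Fxyd2 was at 68.2% of its sham mean, a log2 change of -0.56 (SE 0.14, limma adjusted p = 0.00130) and of -0.93 on rescaled values (adjusted p = 6.51e-05). From UUO7 to R4W it rose by 0.34 (SE 0.14, adjusted p = 0.0447), or 0.45 on rescaled values (adjusted p = 0.0297). The rise on deposited values was not called without UUO7 replicate 2 or 4 or R4W replicate 1, 3 or 4, where adjusted p-values ran from 0.0524 to 0.134. Proximal tubule cells also express Fxyd2, and the summed FPKM of the 9 proximal tubule genes listed was 40659 to 53909 in sham, 10120.5 to 17743 in UUO7 and 23104 to 32869 in R4W. Most of this sum was 1 gene, Kap, whose mean was 41342 FPKM for sham, 12629.5 FPKM for UUO7 and 21673 FPKM for R4W. Of these 9 genes, 9 were called lower in UUO7 against sham, where 17.8% of all genes were, and 8 in R4W, where 11.6% of all genes were. Their part in the Fxyd2 result was not tested.

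Fxyd4, the collecting duct FXYD protein also known as CHIF, was not called in UUO7. It lies on chromosome 6 from 117933559 to 117937692. Sham libraries spread widely, at 57.8, 184, 55.9 and 102 FPKM, while UUO7 libraries stood at 101, 98.3, 120 and 111 FPKM. The change was 0.28 (SE 0.31, limma adjusted p = 0.421) and -0.21 on rescaled values (adjusted p = 0.534). Without sham replicate 2, which held the highest sham value, the change was 0.63 (adjusted p = 0.0421). That library also had the highest sham level of Aqp2, the vasopressin-regulated water channel of principal cells, with 529 FPKM against 159, 143 and 216 FPKM in sham replicates 1, 3 and 4.

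Fxyd4 measured 140, 215, 114 and 114 FPKM in R1W, 184, 106, 120 and 114 FPKM in R2W, and 255, 114, 163 and 201 FPKM in R4W. The R4W group overlapped with sham, and 2 of its 4 libraries were above every sham library. The change was 0.98 (SE 0.31, limma adjusted p = 0.00845), and 0.61 on rescaled values (adjusted p = 0.0751). The ratio of Fxyd4 to Fxyd2 was 0.0147, 0.0449, 0.0143 and 0.0246 in sham, 0.0420, 0.0490, 0.0509 and 0.0573 in UUO7, and 0.0935, 0.0444, 0.0631 and 0.0647 in R4W. These groups overlapped with sham through sham replicate 2 alone, and the exact permutation p was 0.0571 in both comparisons (adjusted 0.0762).

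Counted together, 4 of the 9 genes were called in UUO7 against sham, all lower: Scnn1a, Nr3c2, Atp1b1 and Fxyd2. In the same comparison 77.9% of all genes tested were called, 60.1% higher and 17.8% lower. After rescaling 7 of the 9 were called, all lower, where 73.0% of all genes were called and 36.5% were called lower. The median change of the 9 was -0.45, and -0.79 on rescaled values, beside 0.42 and 0.01 for all genes. The members not called on either scale were Scnn1b and Fxyd4.

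In UUO2 against sham, 4 of 9 were called where 49.2% of all genes were. Scnn1g was higher, as were 32.3% of all genes, and Scnn1a, Nr3c2 and Fxyd2 were lower, as were 17.0%. On rescaled values 4 of 9 were called, Scnn1a, Nr3c2, Atp1b1 and Fxyd2, all lower, where 50.8% of all genes were called and 25.5% were lower. On deposited values without UUO2 replicate 2, 5 of 9 were called, 1 higher and 4 lower. Of all 14785 genes, 4999 were higher and 2791 lower in that fit. From UUO2 to UUO7, 3 of 9 were called (Scnn1g, Atp1b1 and Fxyd2, all lower), where 66.7% of all genes were called and 14.7% were lower. On rescaled values 5 of 9 were called, all lower, where 62.0% of all genes were called and 31.9% were lower. The count on deposited values was 5 without UUO2 replicate 4, and 2 without UUO2 replicate 2 or 3 or UUO7 replicate 1 or 4. Of all 14785 genes those fits called 9717, 9389, 9378, 9391 and 9253, in that order, beside 9855 with every library. Without UUO2 replicate 2 the called pair was Atp1b1, lower, and Scnn1b, higher. The Scnn1g call in it was lost without UUO2 replicate 2 or 3 or UUO7 replicate 1, 2 or 4, and the Fxyd2 call without UUO2 replicate 2.

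During recovery the calls against UUO7 were all upward. In R1W they were 4 of 9 (Scnn1a, Nr3c2, Hsd11b2 and Atp1b1), where 14.5% of all genes were called and 6.47% were higher. The count fell to 1 without UUO7 replicate 1, and to 2 without UUO7 replicate 2, R1W replicate 1 or R1W replicate 4. Of all 14785 genes those fits called 1345, 1904, 1372 and 1116, in that order, beside 2145 with every library. On rescaled values the count was the same 4, where 14.4% of all genes were called and 7.26% were higher. In R4W 7 of 9 were called on deposited values, where 48.4% of all genes were called and 17.6% were higher, and 9 of 9 on rescaled values, where 48.3% of all genes were called and 25.1% were higher. The remaining pair on deposited values were Scnn1b (0.37, limma adjusted p = 0.0506) and Fxyd4 (0.71, adjusted p = 0.0640). Scnn1b was called there without UUO7 replicate 4 or R4W replicate 3, and Fxyd4 without R4W replicate 2.

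Against sham, R1W and R2W each had 4 of 9 called, with Scnn1b, Scnn1g and Hsd11b2 higher and Fxyd2 lower, where 74.1% and 69.0% of all genes were called. The direction of Scnn1g turned on rescaled values, to -0.14 in R1W and -0.094 in R2W, neither called. Higher calls made up 59.4% of all genes in R1W and 56.1% in R2W, and lower calls 14.7% and 12.9%. On rescaled values 3 were called in R1W (Scnn1a, Atp1b1 and Fxyd2) and 2 in R2W (Atp1b1 and Fxyd2), all lower. In those tests 68.3% of all genes were called in R1W and 34.6% were lower, and 63.6% were called in R2W and 32.5% were lower. In R4W 7 of 9 were called, 6 higher and Fxyd2 lower, where 66.4% of all genes were called, 54.8% higher and 11.6% lower. On rescaled values 2 of 9 were called, Atp1b1 and Fxyd2, both lower, where 60.1% of all genes were called and 31.1% were lower. The 6 members that were higher on deposited values had positive changes on rescaled values too, from 0.05 for Scnn1g to 0.62 for Sgk1, and none passed the test there.

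Between R1W and R4W, limma called 0 of 9 on deposited values, where 19.1% of all genes were called, and 3 of 9 had an unadjusted p under 0.05. On rescaled values Scnn1a (0.68, limma adjusted p = 0.0479) and Nr3c2 (0.43, adjusted p = 0.0386) were called higher, where 17.3% of all genes were called and 8.67% were higher. The count on deposited values was 1 without R1W replicate 1 (Scnn1a) and 2 without R1W replicate 2 (Nr3c2 and Sgk1). Of all 14785 genes those fits called 3491 and 2839, beside 2830 with every library. The authors' deposited table called 3 of 9 in that comparison, all higher, and its share over all genes was not counted here.

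**Figure D3:**
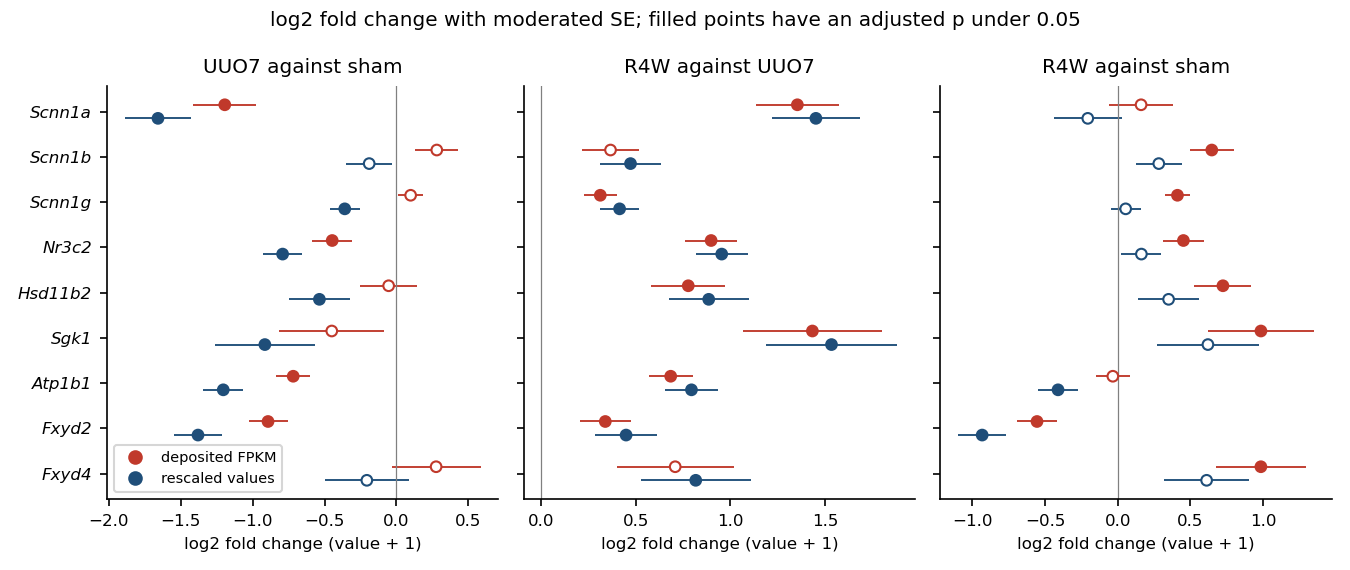
log2 fold change of value + 1 with its moderated SE for each member in UUO7 against sham, R4W against UUO7 and R4W against sham, on deposited FPKM (red) and rescaled values (blue), with filled points at an adjusted p under 0.05. In the middle panel all 18 points lie above 0, and in the right panel Fxyd2 is the only member below 0 and filled on both scales.

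The authors' deposited table of fold changes lay closer to the rescaled values. It lists a log2 fold change of -1.75 for Scnn1a in UUO7 against sham and of -0.40 for Scnn1g, and calls 7 of the 9 members lower. For R4W against UUO7 the authors' deposited table calls 9 of 9 higher, from 0.40 for Fxyd2 to 1.51 for Sgk1. For R4W against sham the authors' deposited table calls 6 members: Scnn1b (0.30), Hsd11b2 (0.35) and Sgk1 (0.60) higher, and Scnn1a (-0.21), Atp1b1 (-0.41) and Fxyd2 (-0.96) lower. These comparisons share sham or UUO7 libraries with each other. The share of all genes that the authors' deposited table calls was not counted here, so these counts have no background beside them.

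In the order of rescaled means over the 6 groups, UUO7 was the lowest group for all 9 genes. For Scnn1b this rested on UUO2 replicate 2, at 39.3, since the other 3 UUO2 libraries, at 23.6, 21.6 and 23.9, were below the UUO7 mean of 26.5. For Fxyd4 it rested on sham replicate 2, at 211, with the other sham libraries at 73.0, 70.8 and 126 and the UUO7 mean at 94.2. The UUO7 means ran from 29.9% of sham for Scnn1a, 38.6% for Fxyd2, 43.4% for Atp1b1 and 45.8% for Nr3c2 to 88.0% for Scnn1b. Sham was the highest group for Scnn1a, Atp1b1 and Fxyd2, R4W for Nr3c2, Hsd11b2, Sgk1 and Fxyd4, R2W for Scnn1b and UUO2 for Scnn1g. Most neighbours in these orders did not pass the test of their difference. Those that did were UUO7 and R1W for Scnn1a and Atp1b1, UUO2 and R2W for Scnn1a, and UUO2 and sham for Atp1b1 and Fxyd2. For Scnn1a the place of UUO2 next to R2W rested on UUO2 replicate 2, at 42.5. The other UUO2 libraries, at 15.8, 14.9 and 14.0, were below the R1W mean of 20.7.

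Other genes of the pathway were taken from lists of channel regulators, steroid receptor genes and sodium pump genes. Of 22 channel regulators, 10 were called higher and 7 lower in UUO7 against sham (median change 0.17, beside 0.42 for all genes), and 7 higher and 11 lower on rescaled values. Over all genes, 60.1% were higher and 17.8% lower in that comparison, and 36.5% in each direction on rescaled values. Values of single list genes are on the deposited scale, and of the list genes named here Tsc22d3, Gata3 and Trpm6 lost their UUO7 calls on rescaled values. Serpine2, which encodes the protease inhibitor nexin-1, went from 6.00 ± 0.82 to 98.1 ± 15.4 FPKM (SD, n = 4), a log2 change of 3.82 (limma adjusted p = 1.53e-10). Spint2, an inhibitor of membrane serine proteases, rose from 244 ± 38.3 to 739 ± 117 FPKM, and St14, the membrane protease matriptase, from 27.4 ± 6.84 to 58.3 ± 6.08 FPKM. Of the 7 lower genes, the 3 with the greatest changes were Sgk2, a relative of Sgk1, from 57.5 ± 4.27 to 14.7 ± 1.26 FPKM, the deubiquitinase gene Usp2 from 40.0 ± 4.98 to 13.7 ± 3.21 FPKM, and Klhl3, an adaptor for ubiquitination of WNK kinases, from 8.26 ± 0.23 to 2.84 ± 0.27 FPKM.

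In R4W against sham the regulator list had 11 genes called higher and 4 lower, and 5 higher and 6 lower on rescaled values. Over all genes, 54.8% were higher and 11.6% lower there, and 28.9% and 31.1% on rescaled values. Of the 3 lower genes above, 2 were not called against sham in R4W on either scale. Usp2 stood at 37.9 ± 1.27 FPKM (log2 change against sham -0.07, limma adjusted p = 0.747) and Klhl3 at 7.79 ± 1.01 FPKM (-0.08, adjusted p = 0.719). On rescaled values their R4W means were 73.0% and 72.7% of sham, with changes of -0.43 (adjusted p = 0.0606) and -0.42 (adjusted p = 0.0877). Sgk2 stayed lower than sham at 36.9 ± 5.07 FPKM (-0.63, adjusted p = 0.00360). Serpine2 (36.6 ± 6.08 FPKM), Spint2 (386 ± 33.3 FPKM) and St14 (52.0 ± 1.35 FPKM) stayed higher than sham, with changes of 2.42, 0.67 and 0.93, and of 2.08, 0.29 and 0.56 on rescaled values, where they were called too.

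Of 16 steroid receptor genes, 14 had a row, and Zbtb16 and Cyp17a1 were not analysed here. In UUO7 against sham 4 were called higher and 6 lower (median -0.07), where 60.1% and 17.8% of all genes were. On rescaled values 2 were higher and 9 lower, where 36.5% of all genes were called in each direction. Edn1, endothelin 1, rose from 1.18 ± 0.37 to 19.0 ± 0.94 FPKM (log2 change 3.22, limma adjusted p = 4.30e-09). Tsc22d3, the glucocorticoid-induced leucine zipper, was called higher at 25.2 ± 2.02 FPKM against 16.8 ± 4.34 FPKM (0.59, adjusted p = 0.0202), which was not called after rescaling (0.12, adjusted p = 0.599), and it reached 43.1 ± 9.84 FPKM in R4W. Klf9 fell from 26.7 ± 3.94 to 9.20 ± 2.98 FPKM and Ndrg2 from 74.8 ± 10.5 to 38.3 ± 1.09 FPKM, both steroid-responsive genes. Hsd11b1, the enzyme that regenerates active glucocorticoid, fell from 134 ± 43.7 to 58.5 ± 5.46 FPKM and was at 50.3 ± 2.94 FPKM in R4W (-1.32 against sham, adjusted p = 1.89e-05).

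Of 10 other sodium pump and FXYD genes, 8 had a row. In UUO7 against sham 7 were called higher and 1 lower, with a median change of 2.09 beside 0.42 for all genes, of which 60.1% were higher and 17.8% lower. On rescaled values 5 were higher and 1 lower, where 36.5% of all genes were called in each direction. Fxyd5 rose from 13.5 ± 4.69 to 138 ± 5.24 FPKM, Fxyd1 from 6.82 ± 3.34 to 47.4 ± 11.3 FPKM, and Fxyd6 from 3.44 ± 0.88 to 22.4 ± 2.17 FPKM. These 3 FXYD genes were still higher than sham in R4W, by 2.60, 2.56 and 1.65 on the log2 scale.

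**Figure D4:**
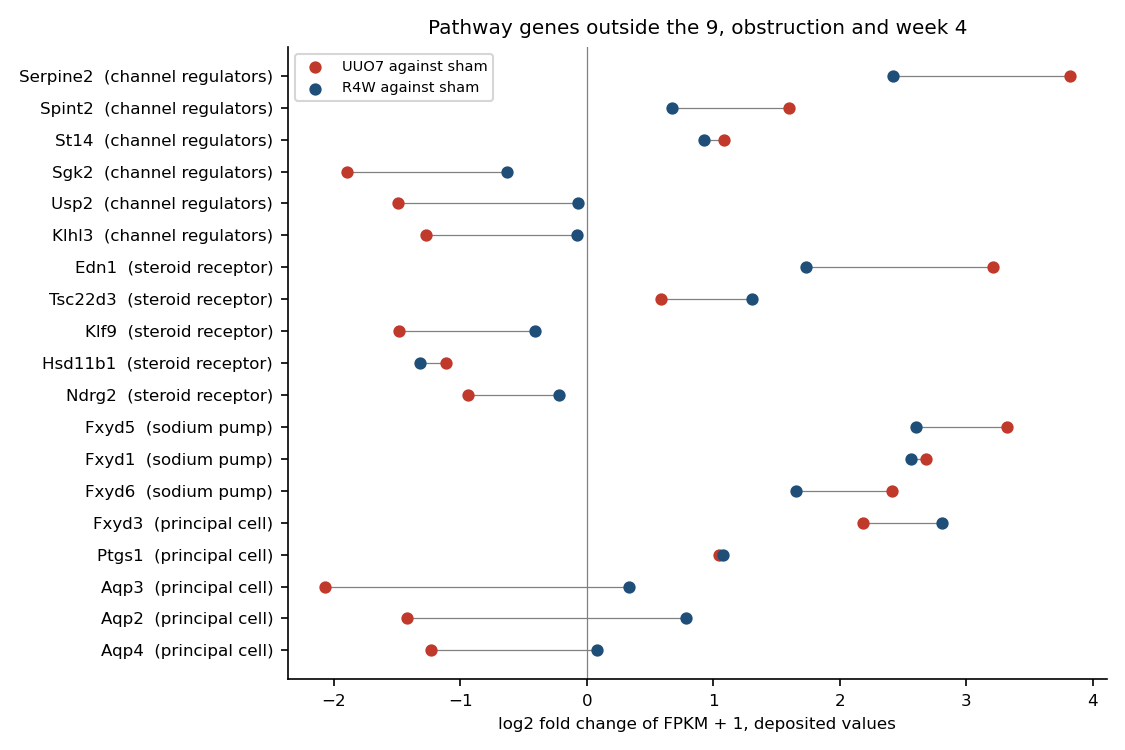
log2 fold change of FPKM + 1 on deposited values for the list genes named in the text, in UUO7 against sham (red) and R4W against sham (blue), joined by a line for each gene. Aqp3 lies at -2.07 in UUO7 and at 0.34 in R4W (-0.036 on rescaled values, not called on either scale), whereas Hsd11b1 lies at -1.11 and -1.32.

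Markers of principal cells, which carry the channel, were also lower in UUO7 and higher in R4W than in UUO7. Of 12 principal cell genes, 7 were called lower and 3 higher in UUO7 against sham, where 17.8% and 60.1% of all genes were. On rescaled values 8 were lower and 2 higher, where 36.5% of all genes were called in each direction. In R4W against UUO7, 8 were called higher and 0 lower on either scale, where 17.6% of all genes were called higher on deposited values and 25.1% on rescaled values. Aqp3, the basolateral water channel, went from 68.4 ± 9.93 FPKM in sham to 15.5 ± 1.35 in UUO7 and 87.3 ± 18.3 in R4W. Aqp2 went from 262 ± 181 FPKM to 85.4 ± 20.8 and 420 ± 190 FPKM. Aqp4, another basolateral water channel, went from 7.68 ± 4.91 FPKM to 2.37 ± 0.74 and 8.66 ± 5.79 FPKM. The 3 higher genes on deposited values were Fxyd3, Ptgs1 and the transcription factor gene Gata3. Gata3, named after its values were seen, measured 6.36 ± 3.04 FPKM in sham and 11.3 ± 2.20 FPKM in UUO7, with overlapping groups. The summed FPKM of the 12 genes was 396 to 868 in sham, 220 to 296 in UUO7 and 570 to 1080 in R4W, and no gene of the list was at 0 in all libraries of a group. Their part in the results on the channel subunits was not tested.

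Genes of other cell types also differed between the groups. Of 8 distal convoluted and connecting tubule genes, 6 were called lower and 2 higher in UUO7 against sham. Calb1, a connecting tubule marker, fell from 88.3 ± 4.92 to 9.24 ± 1.35 FPKM (SD, n = 4) and stood at 95.0 ± 11.4 FPKM in R4W. The 2 higher genes, named after their values were seen, were the calcium channel gene Trpv5, at 3.74 ± 0.52 FPKM in sham and 12.5 ± 3.06 FPKM in UUO7, and the magnesium channel gene Trpm6, at 2.17 ± 0.39 and 2.85 ± 0.33 FPKM, whose call was lost on rescaled values. Of 10 intercalated cell genes, 7 were lower and 1 higher in UUO7, and 9 lower and 0 higher on rescaled values. All 8 macrophage genes and all 7 fibroblast genes were called higher in both UUO7 and R4W against sham, on both scales. Of all genes, 60.1% were called higher and 17.8% lower in UUO7 on deposited values, and 54.8% and 11.6% in R4W. On rescaled values 36.5% of all genes were called in each direction in UUO7, and 28.9% were higher and 31.1% lower in R4W. The 6 urothelial genes, from the lining of the renal pelvis, were all called higher in R4W, with a summed level of 53.2 to 171 FPKM in R4W and of 1.51, 37.6, 2.58 and 2.66 FPKM in the sham libraries. Adipose genes summed to 1644 and 402 FPKM in R4W replicates 1 and 3, to 62.5 and 69.8 FPKM in R4W replicates 2 and 4, and to 291 FPKM in sham replicate 2. R4W replicate 1 also held the highest Sgk1 and Fxyd4 values of any library, 63.2 and 255 FPKM, and the part of these markers in the R4W results was not tested.

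The genes whose rescaled profile was most like each member over the 24 libraries were found by Pearson's r among 9707 genes, as a description. The libraries share their group differences and marker levels, so these values are not independent. Scnn1a was most like Uroc1 (r = 0.968), Slc4a1 (0.962), the intercalated cell anion exchanger, and Scn4b (0.960). Nr3c2 was most like Bsnd (0.958), the barttin chloride channel subunit, and Hsd11b2 most like the potassium channel subunit gene Kcne1 (0.901). Scnn1b was most like Ildr1 (0.885), Scnn1g most like Pgrmc1 (0.847) and Sgk1 most like Celsr2 (0.861). Atp1b1 was most like Hsd3b3 (0.973), Fxyd2 most like Cisd1 (0.991), a mitochondrial outer membrane protein gene, and Fxyd4 most like Epn3 (0.880). Among the members, Scnn1a and Nr3c2 had r = 0.904 and Scnn1b and Hsd11b2 r = 0.891, whereas Scnn1b and Scnn1g had r = 0.358.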

How the data were processed

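Bulk RNA sequencing of kidney from 24 mice in 6 groups of 4 was used, grouped by sample title. The values that the authors deposited, in a table of genes by libraries, are taken here as FPKM. The unit is not stated in the sources used here. It was inferred because column sums differ (717415 to 830179) and differ less when weighted by transcript length (a ratio of 1.08 against 1.16 between the largest and smallest), which does not exclude another length-scaled unit. RSEM, Bowtie2, DESeq2, FastQC and mm10 are named per the submitters' processing notes, without versions or roles. The log2 fold changes and adjusted p-values of the authors' comparisons are deposited per the file headers; their direction was inferred from their slope on the sample columns. The smallest gene mean was 1. The table holds no counts, and library depth was not estimated here, so no counting interval is given.

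For each gene, log2(FPKM + 1) was fitted on the 6 groups by limma (version 3.58.1, R version 4.3.3) over the 24 libraries, using lmFit and then eBayes with a trended prior. Its p-values were adjusted over 14785 genes by Benjamini-Hochberg, with no minimum fold change. SE is limma's moderated standard error. Fold changes on this scale are smaller than those of FPKM itself for low genes. Ratios of genes within a library were tested by exact permutation, two-sided (Python 3.11.15, numpy 2.4.6). Labels do not say how animals were housed or batched, so p-values measure the spread between these animals. Same-numbered libraries are different animals. The mean correlation of their deviations was -0.127 in UUO7 against sham and 0.148 in R1W against UUO7. Single pairs ran from -0.077 to 0.451 in R1W against UUO7, with 2 above 0.1, and from 0.042 to 0.116 in R4W against UUO7. In no comparison did every pair exceed 0.1.

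The members, gene lists and tests were chosen with earlier results of these data known. All 9 members are named; from the pathway and principal cell lists, up to 3 higher and 3 lower genes of greatest change called in UUO7 against sham with no overlap; and the most alike genes among those with a mean of at least 5 FPKM, leaving out the members and symbols that are only clone or model names, which left 9707 genes. Some genes this rule names are not reported here. Alternatives were rescaled values, pseudocounts of 0.1 and 10, a minimum mean of 5, fits on 2 groups or without UUO2, a replicate block, stricter calls, R4W replicate 2 placed in R2W, and each library left out. The fit was tested on simulated data.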

Additional observations from a re-analysis of the deposited data

Results flagged for a closer look

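In groups of 4 libraries, 7 of 72 sets of values had a library far from the other 3 by Dixon's criterion, where chance gives about 3.6. UUO2 replicate 2 accounted for 4 of them: Scnn1a at 37.5 FPKM where the other UUO2 libraries held 12.7 to 14.1, Scnn1b at 34.7 FPKM against 19.3 to 21.6, Nr3c2 at 3.33 FPKM against 1.46 to 1.66, and Hsd11b2 at 152 FPKM against 65.6 to 75.9. The others were Atp1b1 in sham replicate 2 (982 FPKM against 921 to 928), Fxyd2 in R1W replicate 2 (1992 FPKM against 2899.5 to 2993), and the Fxyd4 to Fxyd2 ratio in the same R1W library (0.108 against 0.0380 to 0.0466).

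Groups moved to opposite sides of sham for 2 genes. For Scnn1a every R4W library was above every sham library (log2 change 0.16, not called), while every UUO7 library (-1.19) and every R1W library (-0.45, not called) was below. For Nr3c2 the R4W change was 0.45 and the UUO7 change -0.45. The groups were chosen for lying on opposite sides of shared sham libraries, so a comparison between them is no separate test. The planned fits of R4W against UUO7 gave 1.35 for Scnn1a (limma adjusted p = 6.91e-05) and 0.90 for Nr3c2 (limma adjusted p = 4.53e-05). For Scnn1a, R4W against R1W gave 0.61 (limma adjusted p = 0.0545). After rescaling, the R4W change of Scnn1a against sham was -0.21 (not called). There every R4W library (30.6 to 36.1) was below every sham library (36.5 to 39.7), so the side of sham depended on the scale.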

How the results depend on the processing

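Of 160 recomputed counts of called members, 134 stayed within 1.5 times the reported count. Rescaling gave 7 called members in UUO7 against sham, 5 in UUO7 against UUO2, 2 in R2W against sham, 2 in R4W against sham and 2 in R4W against R1W. A log2 change of 1 or more in size, as a further condition, left 1 in UUO7 against sham, 2 in R4W against UUO7 and 0 in UUO2 against sham, UUO7 against UUO2, R1W against UUO7, R1W against sham, R2W against sham and R4W against sham, in which limma gave 4, 4, 7, 5, 4 and 7 members an unadjusted p under 0.05. Of all 14785 genes that condition left 4076, 892, 1294, 2391, 196, 3019, 2454 and 2182 in these 8 comparisons, in that order. An adjusted p under 0.01 left 1 in R1W against UUO7 and 1 in UUO7 against UUO2, beside 687 and 8173 of all genes. Fitting 2 groups only gave 2 in UUO2 against sham, beside 7157 of all genes. R4W against R1W had 2 with a pseudocount of 10, 1 with a minimum mean of 5 and 2 without UUO2. Over all genes these fits called 3056 of 14785, 2462 of 10333 and 3153 of 14785. Leaving out single libraries gave 3 to 5 called in UUO2 against sham, 4 to 5 in UUO7 against sham, 2 to 5 in UUO7 against UUO2, 1 to 5 in R1W against UUO7, 6 to 8 in R4W against UUO7, 4 to 5 in R1W and in R2W against sham, 6 to 7 in R4W against sham and 0 to 2 in R4W against R1W. Of all 14785 genes those fits called 6291 to 7790, 11041 to 11451, 9253 to 9717, 1116 to 2535, 6015 to 6749, 10395 to 10881, 9361 to 10444, 9044 to 9758 and 728 to 3491, in that order. The cause of these shifts was not tested. After rescaling, changes reversed in UUO7 against sham for Scnn1b (-0.19), Scnn1g (-0.36) and Fxyd4 (-0.21), in UUO7 against UUO2 for Scnn1b (-0.0017) and Fxyd4 (-0.25), in R1W against sham for Scnn1g (-0.14), Nr3c2 (-0.27) and Sgk1 (-0.29), in R2W against sham for Scnn1a (-0.31), Scnn1g (-0.094), Nr3c2 (-0.21) and Sgk1 (-0.12), in R4W against sham for Scnn1a (-0.21) and in R4W against R1W for Scnn1b (0.047). Leaving out single libraries reversed uncalled changes, whose ranges were -0.24 to 0.034 (Scnn1b), -0.29 to 0.11 (Hsd11b2) and -0.034 to 0.53 (Fxyd4) in UUO2 against sham, -0.13 to 0.035 (Hsd11b2) in UUO7 against sham, -0.13 to 0.15 (Nr3c2), -0.16 to 0.24 (Hsd11b2) and -0.00055 to 0.25 (Fxyd4) in UUO7 against UUO2, -0.17 to 0.38 (Sgk1) in R1W against sham, -0.0087 to 0.13 (Scnn1a) and -0.051 to 0.49 (Sgk1) in R2W against sham, and -0.12 to 0.054 (Scnn1b) and -0.12 to 0.080 (Fxyd2) in R4W against R1W. Placing R4W replicate 2 in R2W gave 0.0029 for Scnn1b in R4W against R1W. Leaving out a library, the log2 ratio of Fxyd4 to Fxyd2 in R1W against UUO7 ran from -0.27 to 0.24, with -0.27 without R1W replicate 2, and in R4W against sham that of Scnn1b to Scnn1a ran from 0.43 to 0.57 and that of Scnn1g to Scnn1a from 0.20 to 0.33, both with an adjusted exact p of 0.0490 without R4W replicate 3. A replicate block kept every count within 1.5 times, with 4 members called in UUO7 against sham, beside 11422 of all genes. It called Sgk1 in UUO7 against UUO2 (limma adjusted p = 0.0475) and Scnn1b in R4W against UUO7 (0.0494), and lost Fxyd2 in R4W against UUO7 (0.0621).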
